A study of Mus musculus with 3 samples.

Results

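Layer 6b is the deepest and thinnest sheet of glutamatergic neurons in the mouse cortex, lying against the white matter. Many of its neurons are what is left of the subplate, a transient layer that helps the first thalamic and cortical axons find their way during development. In adult cortex these neurons are known for the genes *Ccn2* (a secreted matrix-associated growth factor), *Cplx3* (a complexin, which binds the SNARE complex at synapses) and *Nxph4* (a neurexophilin, a secreted ligand of neurexins), and for responding to the arousal peptide orexin through *Hcrtr2*. Their neighbors above are the corticothalamic neurons of layer 6, which carry *Foxp2* and *Syt6*.

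Layer 6b nuclei were chosen by counts of marker genes in single-nucleus RNA-seq of prefrontal cortex. Nuclei entered only if 200 genes or more were detected and less than 10% of the counts were mitochondrial. It was counted as layer 6b with at least 2 unique molecular identifiers (UMIs, each standing for 1 captured RNA molecule) of *Ccn2*, *Cplx3* and *Nxph4* together, of which at least 1 was *Ccn2* or *Nxph4*. It also needed a UMI of *Slc17a7* or *Slc17a6*, the glutamate transporters of excitatory neurons, no UMI of the inhibitory genes *Gad1*, *Gad2* and *Slc32a1*, none of the olfactory bulb genes *Cdhr1* and *Eomes*, and at most 1 of *Tshz2*. This found 255 nuclei among 43464 kept, which is 0.587% of them, and 1.29% of the 19816 nuclei that passed the same glutamatergic gates.

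The nuclei came from 3 libraries of male mice of 6 to 8 weeks, sorted by the neuronal antigen NeuN and DNA stain and sequenced from the 3′ end on the 10x Genomics platform. The C57BL/6J library pooled 5 wild-type mice. The *Nav1* KO library pooled 4 mice homozygous for a deletion in exon 1 of *Nav1* on the C57BL/6J background, made in the germline by CRISPR. The third library came from the inbred strain BTBR T<+> Itpr3<tf>/J, with the number of mice not given in the sources used here. Each genotype was thus 1 pool, so genotype and library cannot be told apart, no test between genotypes was possible, and every interval below covers counting error only. The C57BL/6J library gave 74 layer 6b nuclei with 252955 counts, the *Nav1* KO library 120 with 468118 and the BTBR library 61 with 203374. Their median depths were 2762, 3017.5 and 3197 UMIs per nucleus. Of all kept barcodes 178 occurred in more than 1 library, and 1 layer 6b nucleus was among them.

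The labels could be checked in part. *Nav1* was found in the layer 6b nuclei at 324 CPM (counts scaled to a library sum of 1000000) in C57BL/6J, 269 in the *Nav1* KO and 98.3 in BTBR. Series of 3 values below keep this order. Counts from the 3′ end do not read the deleted stretch of exon 1, so this says nothing about the deletion. *Xist*, which is read from the inactive X chromosome of females, had 0 counts in the layer 6b nuclei of all 3 libraries, which allows up to 3 counts in each.

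*Ccn2* carried the choice of nuclei. Of the 255 layer 6b nuclei 253 had *Ccn2*, 43 had *Cplx3* and 42 had *Nxph4*. *Ccn2* was the single gene found in 181 of them, 72 had at least 2 of the 3 genes, and 11 had all 3. *Ccn2* (mm10, chr10:24595442-24598683, plus strand) stood at 976 CPM in C57BL/6J, 1019 in the *Nav1* KO and 1033 in BTBR. *Cplx3* (chr9:57599992-57606281, minus strand) stood at 55.3, 55.5 and 88.5 CPM, and *Nxph4* (chr10:127525473-127534559, minus strand) at 43.5, 57.7 and 49.2 CPM, in the same order. These levels follow from how the nuclei were chosen and are given as a description.

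The libraries differed in how often these markers turned up outside layer 6b. *Ccn2* was found in 5.63% of 231 nuclei with meningeal fibroblast markers in C57BL/6J (median 1053 UMIs), in 19.2% of 543 in the *Nav1* KO (1627 UMIs) and in 19.7% of 360 in BTBR (1198 UMIs). Among the 123, 455 and 237 of these nuclei with at least 1000 UMIs, thinned to 1000, the shares were 4.07%, 10.5% and 12.7%. In astrocyte nuclei it was found in 2.89%, 9.57% and 7.30%, and in oligodendrocyte nuclei in 0.321%, 3.77% and 3.13%. The oligodendrocyte nuclei, which are not known for the gene, had median depths of 1048.5, 1614.5 and 1333 UMIs. Nuclei with enough layer 6b UMIs but also *Cdhr1* or *Eomes* numbered 4 in C57BL/6J, 138 in the *Nav1* KO and 105 in BTBR, and those gates removed them.

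Some of the chosen nuclei carried markers of meningeal fibroblasts, which goes against their label. Of the 6 genes *Slc6a13*, *Ranbp3l*, *Slc47a1*, *Foxd1*, *Dcn* and *Col1a2*, 2 were found in the layer 6b nuclei of C57BL/6J, 6 in the *Nav1* KO and 5 in BTBR. Their summed level was 7.91 CPM in C57BL/6J, where *Slc6a13*, *Ranbp3l*, *Foxd1* and *Col1a2* were at 0. It was 147 CPM in the *Nav1* KO, led by *Foxd1*, and 310 CPM in BTBR, led by *Ranbp3l* at 128 CPM. In other glutamatergic nuclei of the same libraries it was 30.2, 76.6 and 55.6 CPM. At least 3 UMIs of these genes were found in 0 of 74, 9 of 120 and 12 of 61 layer 6b nuclei. In BTBR all 12 had *Ccn2*, *Cplx3* or *Nxph4* alone and none of the 20 nuclei with 2 or 3 of those genes had any. Results are therefore also given for the 72 nuclei with at least 2 of the 3 genes, and with every nucleus left out that had a UMI of the 6 meningeal genes.

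Markers of other classes were also read. Pericyte genes summed to 0 CPM in C57BL/6J, 72.6 in the *Nav1* KO and 261 in BTBR, led by *Vtn* at 44.9 and 182 CPM, with *Kcnj8* at 0 in all 3. Of the olfactory bulb genes only *Doc2g* and *Nmb* were found, and *Tbx21*, *Lhx1*, *Lhx5* and *Barhl2* were at 0 in every library. The astrocyte list summed to 1071, 805 and 895 CPM, above the 511, 494 and 462 CPM of other glutamatergic nuclei. *Slc1a2*, a glutamate transporter, made up 1028, 662 and 674 CPM of it, while *Aqp4*, *Gfap* and *Fgfr3* were at 0 in C57BL/6J. Against other glutamatergic nuclei none of the 8 astrocyte genes passed both limits of the test given further on, a count near the 2.77% of all genes called. *Slc1a2* had a log2 fold change of 0.85, under the limit of 1, at an edgeR adjusted p of 1.84e-16. *Vtn* was called higher against other glutamatergic nuclei (log2 fold change 1.36, adjusted p = 3.08e-06) and against corticothalamic nuclei (1.36, adjusted p = 0.0363), with no count in the layer 6b nuclei of C57BL/6J, and so was *Ranbp3l* (2.70 against corticothalamic nuclei, adjusted p = 7.49e-05). Without nuclei that had a meningeal UMI *Vtn* did not pass, with a log2 fold change of -0.61 against other glutamatergic nuclei. Of 6 oligodendrocyte genes tested against other glutamatergic nuclei *Mbp* fell, beside 1.38% of all genes lower. None of 5 precursor, 6 microglia and 3 endothelial genes tested passed, which is also near the 2.77% of all genes called. Cortical interneuron genes summed to 83.0, 59.8 and 118 CPM, below the 152, 121 and 196 CPM of other glutamatergic nuclei. Doublet scores in the top 10% of a library were found for 5.41%, 6.67% and 11.5% of layer 6b nuclei, against 8.27%, 8.19% and 7.35% of other glutamatergic nuclei. Among corticothalamic nuclei the shares were 9.33%, 18.9% and 12.4%.

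How common the nuclei were was compared first. Layer 6b nuclei made up 0.506% of kept nuclei in C57BL/6J (exact 95% interval 0.397% to 0.635%), 0.854% in the *Nav1* KO (0.708% to 1.02%) and 0.413% in BTBR (0.316% to 0.530%). The *Nav1* KO share was 1.69 times that of C57BL/6J (interval 1.25 to 2.29) and the BTBR share 0.816 times (0.572 to 1.16). The first interval lies above 1 and the second includes it. Thinning to 2000 UMIs left out nuclei with fewer, so 7617, 9479 and 9433 nuclei remained of 14630, 14056 and 14778. The *Nav1* KO ratio among them was 1.14 (0.729 to 1.80). At 1000 UMIs, with 12236, 12807 and 12682 nuclei, it was 2.26 (1.35 to 3.90). The BTBR ratio was 0.852 (0.526 to 1.38) at 2000 UMIs and turned to 1.23 (0.678 to 2.25) at 1000, with both intervals including 1. Among nuclei with at least 2 of the 3 genes the *Nav1* KO ratio was 1.67 (0.924 to 3.07), from 32 against 20 nuclei, and the BTBR ratio 0.990 (0.506 to 1.94), from 20 against 20. Without nuclei that had a meningeal UMI the *Nav1* KO ratio was 1.56 (1.15 to 2.13) and the BTBR ratio 0.674 (0.459 to 0.982), an interval below 1. The *Nav1* KO ratio was 1.78 (1.32 to 2.41) as a share of glutamatergic nuclei and 1.65 (1.13 to 2.44) with at least 3 UMIs. With no limit on *Tshz2* it was 1.71 (1.29 to 2.28) and under 5% mitochondrial counts 1.66 (1.23 to 2.26). Without the top 10% of doublet scores it was 1.68 (1.24 to 2.30). The BTBR intervals included 1 in these settings. The larger share in *Nav1* KO thus held a counting interval above 1 under some of these choices and not under others. *Ccn2* was also found in more nuclei of the other classes there than in C57BL/6J, and the part of this in the larger share was not tested.

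**Figure D1:**
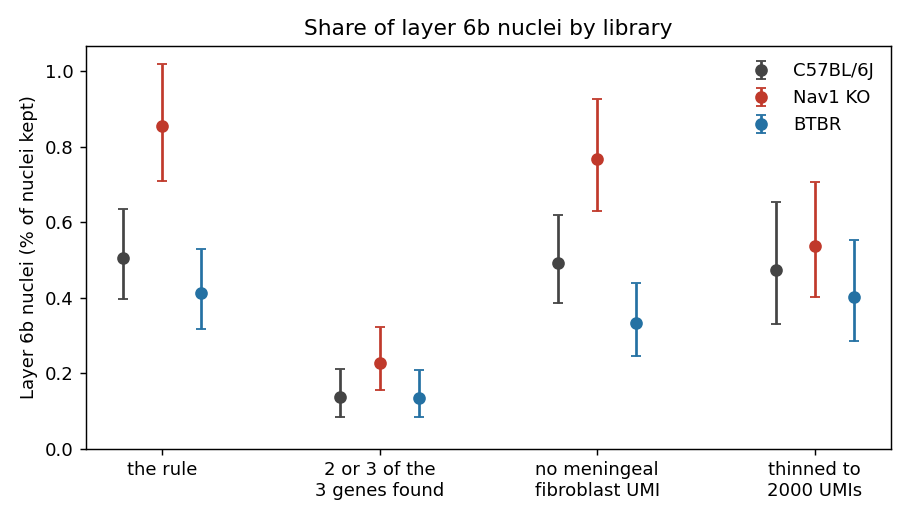
Layer 6b nuclei as a percent of kept nuclei in each library (points), with exact 95% intervals of counting error (bars). They are shown under the rule and 3 other ways of counting. *Nav1* KO sits above C57BL/6J under the rule (0.854% against 0.506%). Thinning to 2000 UMIs counts only nuclei with at least that many, and there the intervals of the 3 libraries overlap.

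A list of 18 further layer 6b genes, none used to choose the nuclei, was then read in the chosen nuclei, in 422 layer 6 corticothalamic nuclei (at least 2 UMIs of *Foxp2*, *Syt6* and *Ntsr1*, with *Syt6* or *Ntsr1*) and in 18913 other glutamatergic nuclei with no UMI of the 3 markers, of which the corticothalamic nuclei are a subset. Summed over the list, the layer 6b nuclei had 1463 CPM in C57BL/6J, 1113 in the *Nav1* KO and 1200 in BTBR. Corticothalamic nuclei had 480, 521 and 465 CPM, and other glutamatergic nuclei 569, 517 and 478. The lowest layer 6b value was above the highest of either other class. After thinning to 1000 UMIs, at least 2 of the 18 genes were found in 39.7%, 29.9% and 46.7% of layer 6b nuclei, against 5.33%, 4.90% and 3.88% of corticothalamic and 8.31%, 7.28% and 6.29% of other glutamatergic nuclei. Unthinned, the shares were 75.7%, 69.2% and 82.0% in layer 6b, 43.3%, 49.0% and 41.1% in corticothalamic and 30.9%, 35.1% and 29.5% in other nuclei. The thinning left out 5 layer 6b nuclei (1, 3 and 1), no corticothalamic nucleus, and 547, 222 and 511 other nuclei.

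The list also showed where the threshold of 2 UMIs lay. Glutamatergic nuclei with 1 UMI of *Ccn2* or *Nxph4* (607 in all), just outside, had 845, 525 and 597 CPM of the 18 genes. Nuclei with exactly 2 UMIs, just inside (98), had 1145, 1028 and 890 CPM, and nuclei with 3 or more had 1618, 1164 and 1365 CPM. Nuclei with 2 or 3 of the marker genes had 1661, 1318 and 1274 CPM. The meningeal genes ran differently, with 236 and 362 CPM in the *Nav1* KO and BTBR at 1 UMI, 216 and 311 CPM at exactly 2, 106 and 309 CPM at 3 or more, and 56.2 and 0 CPM in nuclei with 2 or 3 of the marker genes. In BTBR the level was thus about as high at 3 or more UMIs as at 2.

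**Figure D2:**
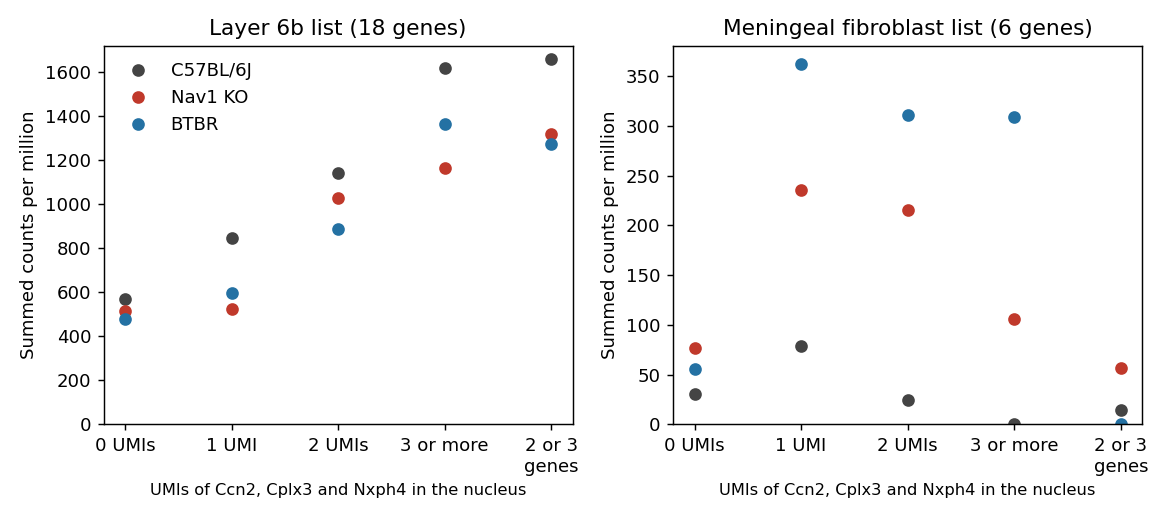
Summed CPM of the 18 layer 6b genes outside the rule (left) and the 6 meningeal fibroblast genes (right) in glutamatergic nuclei grouped by their UMIs of *Ccn2*, *Cplx3* and *Nxph4*, with 1 point per library. The layer 6b genes reached 1145, 1028 and 890 CPM at 2 UMIs, while the meningeal genes were highest at 1 UMI in *Nav1* KO and BTBR.

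Against other glutamatergic nuclei, counts were summed per library and class and fitted with edgeR's quasi-likelihood test with the library as a block. A call needed a Benjamini-Hochberg adjusted p under 0.05 and a log2 fold change of at least 1 in size. Of 14884 genes outside the rule 207 were higher in layer 6b nuclei (1.39%) and 206 lower (1.38%). Of the 18 list genes 11 rose and none fell, with a median log2 fold change of 1.53 over the 18, beside -0.09 over all genes fitted. The list holds genes known for layer 6b and was chosen with earlier results of these data known, so it is not independent evidence of its direction.

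Among genes with at least 50 CPM, the rise was largest for *Svil* (supervillin, an actin-binding protein), at 158, 107 and 39.3 CPM in the layer 6b nuclei of C57BL/6J, *Nav1* KO and BTBR against 5.87, 5.15 and 5.46 CPM in other nuclei. Its log2 fold change was 4.03 ± 0.28 (SE of the edgeR fit, adjusted p = 2.92e-43). Each SE given here comes from the fit and is not the spread of the ratios between the 3 libraries. BTBR was the lowest of the 3 and still above every library of the other class. *Fbxl7*, an F-box protein of ubiquitin ligases, was more even, with 158, 154 and 113 CPM against 7.29, 10.97 and 7.29 CPM, a log2 fold change of 3.85 ± 0.22 (adjusted p = 3.1e-62). *Nxph3*, a second neurexophilin, stood at 87.0 CPM in C57BL/6J, 17.1 in the *Nav1* KO and 167 in BTBR against 5.77, 5.55 and 5.72 CPM. It rose by 3.50 ± 0.32 on the log2 scale (adjusted p = 1.9e-25), on 22, 8 and 34 counts.

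*Nr4a2*, an orphan nuclear receptor that marks deep cortical and claustral neurons, stood at 63.3, 29.9 and 73.8 CPM in layer 6b nuclei and 26.3, 8.19 and 18.7 CPM in other nuclei. Its log2 fold change was 1.47 ± 0.28 (adjusted p = 1.06e-05), and each library had it higher in layer 6b. *Tmem163*, a zinc-transporting membrane protein, was found at 39.5, 68.4 and 44.3 CPM against 6.93, 6.43 and 7.82 CPM (log2 fold change 2.76 ± 0.33, adjusted p = 2.28e-14). *Moxd1*, a relative of dopamine beta-hydroxylase, rested on 8, 3 and 3 counts, with a log2 fold change of 4.03 ± 0.77 (adjusted p = 9.47e-06). *Inpp4b*, a phosphoinositide phosphatase, *Kcnab1*, a beta subunit of voltage-gated potassium channels, *Lpar1*, a lysophosphatidic acid receptor, and *Gabra5*, a GABA-A receptor subunit, rose by 2.50, 1.60, 2.18 and 1.27 on the log2 scale.

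The 11 calls of the list also stood without nuclei that had a meningeal UMI. In the 72 nuclei with at least 2 marker genes the list had 8 genes higher of 17 tested. There *Nr4a2*, *Lpar1*, *Hcrtr2* and *Gabra5* lost the call, with log2 fold changes of 1.28, 1.73, 1.77 and 1.12 and edgeR adjusted p of 0.246, 0.557, 0.54 and 0.146. *Trh*, which encodes thyrotropin-releasing hormone, gained it.

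The 7 list genes that did not pass were *Cdh10*, *Trh*, *Unc5c*, *Rprm*, *Col8a1*, *Cobll1* and *Hsd11b1*. *Cdh10*, a cadherin, was the most abundant gene of the list at 431, 303 and 295 CPM, and the other glutamatergic nuclei had 260, 266 and 207 CPM (log2 fold change 0.27 ± 0.11, adjusted p = 0.155). *Cobll1* had 1 count in all layer 6b nuclei together and *Hsd11b1* had 1, so neither could be judged at this depth.

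**Figure D3:**
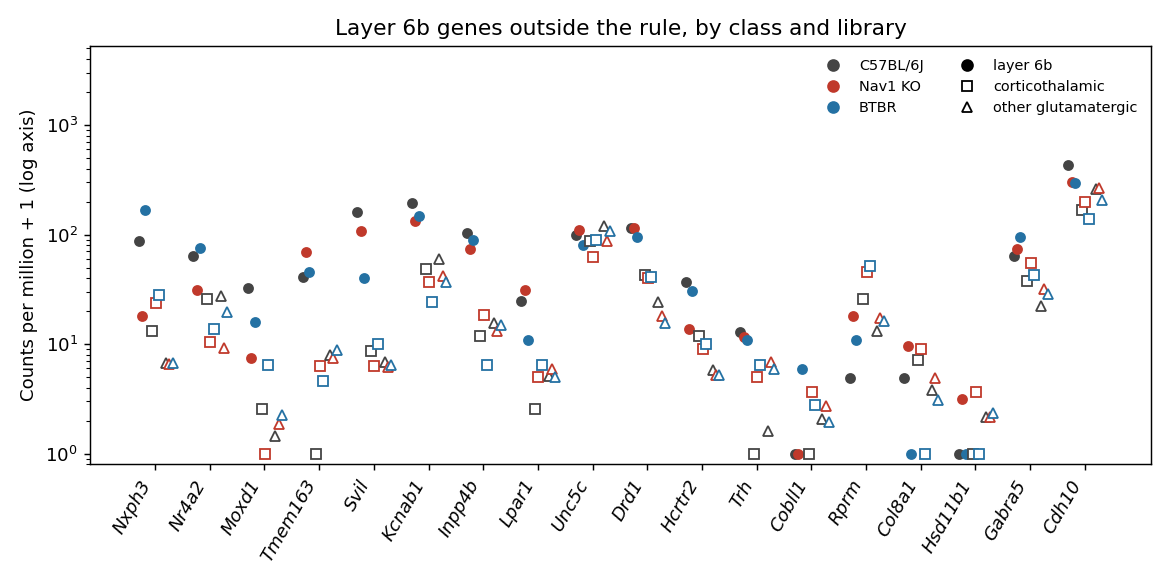
CPM plus 1 on a log axis of the 18 layer 6b genes outside the rule, in layer 6b (filled circles), corticothalamic (squares) and other glutamatergic nuclei (triangles), 1 point per library. *Svil*, *Inpp4b*, *Tmem163* and *Drd1* were above both other classes in all 3 libraries, while *Cobll1* and *Hsd11b1* were at or near 0 CPM.

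Receptors for arousal and reward transmitters were read next, from a list of 40. Of 34 tested, 5 rose and 6 fell in layer 6b against other glutamatergic nuclei, beside 1.39% of all genes higher and 1.38% lower, with a median log2 fold change of -0.13. *Drd1*, the dopamine D1 receptor, stood at 115 CPM in C57BL/6J, 113 in the *Nav1* KO and 93.4 in BTBR, against 23.1, 17.0 and 14.6 CPM in other nuclei. It rose by 2.40 ± 0.21 on the log2 scale (adjusted p = 4.85e-27), and the layer 6b values did not overlap the others. *Hcrtr2*, the orexin receptor, had 9, 6 and 6 counts, which is 35.6, 12.8 and 29.5 CPM against 4.81, 4.23 and 4.20 CPM (log2 fold change 2.22 ± 0.48, adjusted p = 1.75e-04). *Adra2a*, an alpha-2 adrenergic receptor, was at 39.5, 12.8 and 39.3 CPM against 2.38, 2.82 and 3.83 CPM (3.01 ± 0.50, adjusted p = 1.24e-07).

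*Oprm1*, the mu opioid receptor, and *Chrna4*, a nicotinic subunit, were the other receptors that passed, with log2 fold changes of 1.87 and 1.36. The receptors that fell were *Adra1a*, *Htr1b*, *Oprk1*, *Cnr1*, *Crhr1* and *Adrb1*, by 1.02 to 2.79 on the log2 scale. *Cnr1*, the cannabinoid CB1 receptor, had a log2 fold change of -1.24 ± 0.17 (adjusted p = 6.46e-11). The second orexin receptor, *Hcrtr1*, had 1, 2 and 2 counts in layer 6b nuclei. In the nuclei with at least 2 marker genes 2 receptors were higher (*Drd1* and *Adra2a*) and 2 lower (*Cnr1* and *Vipr1*). *Hcrtr2*, *Oprm1* and *Chrna4* did not pass there, with log2 fold changes of 1.77, 2.27 and 1.5 and edgeR adjusted p of 0.54, 0.136 and 0.29. Of the 6 receptors that fell, *Cnr1* was the one that passed there, and the other 5 kept negative log2 fold changes of -0.89 (*Adrb1*) to -2.88 (*Oprk1*) with adjusted p of 0.177 to 0.602. *Htr1b* also missed the threshold without nuclei that had a meningeal UMI (-1.73, adjusted p = 0.0763).

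Of 9 genes of the layer 6 corticothalamic list 3 were higher than in the other glutamatergic nuclei (*Tle4*, *Grik3* and *Col12a1*) and none lower. For each layer list the shares over all genes are 1.39% higher and 1.38% lower. *Tle4*, a transcriptional corepressor of layer 6, stood at 684, 451 and 565 CPM in layer 6b, 388, 370 and 353 CPM in corticothalamic and 144, 119 and 122 CPM in other nuclei. Against the other nuclei it rose by 1.93 ± 0.10 on the log2 scale (adjusted p = 1.35e-71). *Hs3st4* and *Zfpm2* rose as well, by 1.74 and 1.37, out of 9 genes shared by layer 6 neurons, and the other 7 did not pass. Of 8 layer 2/3 genes 4 fell (*Otof*, *Stard8*, *Lamp5* and *Rasgrf2*) and none rose. *Otof* and *Stard8* lost the call in the nuclei with at least 2 marker genes (log2 fold changes -1.55 and -1.29, adjusted p = 0.621 and 0.482), where *Cux2* was called lower. Of 7 genes of layer 4/5 intratelencephalic neurons *Etv1* and *Slc30a3* fell, of which *Etv1* went from -1.58 to -0.88 in the nuclei with at least 2 marker genes and lost its call (adjusted p = 0.342). Of 4 near-projecting genes tested *Vwc2l* rose, by 2.62 ± 0.43 (adjusted p = 1e-07), and *Etv1*, which is on that list too, fell.

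Among genes with at least 50 CPM in other nuclei and the same direction in all 3 libraries, 4 of the 10 with the largest falls are given here. *C1ql3*, a secreted C1q-like synaptic protein, had 115, 186 and 167 CPM in layer 6b against 331, 546 and 503 CPM (log2 fold change -1.74 ± 0.13, adjusted p = 6.93e-39). *Kctd16*, an auxiliary subunit of GABA-B receptors, had 233, 352 and 280 CPM against 697, 717 and 830 CPM (-1.52 ± 0.11, adjusted p = 1.26e-40). *Tafa1*, a secreted neuronal protein, fell by 1.79 on the log2 scale, with BTBR lowest at 54.1 CPM against 410. *Dab1*, the adaptor of reelin signaling, fell by 1.49. *Plk5*, *Fstl4*, *Ryr1*, *Etv1* and *C030017B01Rik* were also among the 10, with falls of 1.51 to 1.78, and of the genes named *Etv1* alone lost its call in the nuclei with at least 2 marker genes. Those named for the largest rises beside the list genes and *Fbxl7* were *Gdpd2*, *C130073E24Rik*, *Igfbp2* and *Cdh24*, with log2 fold changes of 3.43, 2.60, 2.48 and 2.31.

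*Igfbp2*, an insulin-like growth factor binding protein, differed between libraries. It was at 7.91 CPM in C57BL/6J, 91.9 in the *Nav1* KO and 78.7 in BTBR. Without the nuclei that had a meningeal UMI it was at 8.09, 61.2 and 0 CPM, in the nuclei with at least 2 marker genes at 14.3, 137 and 0 CPM. Its call stood in both but rested mainly on *Nav1* KO, with BTBR at 0. Among all layer 6b nuclei of *Nav1* KO it had 43 counts, and the most in a single nucleus were 10. *Slc6a13*, *Dcn* and *Ranbp3l* of the meningeal list were themselves called higher, with log2 fold changes of 1.72, 1.64 and 1.53. In the nuclei with at least 2 of the 3 marker genes all 3 turned negative and no longer passed, with *Slc6a13* at -0.66 and *Ranbp3l* at -1.36. The 6 meningeal genes together had 1, 7 and 0 counts in those nuclei. The fitted value for *Dcn* is therefore not read as a size, and the values for *Slc6a13* and *Ranbp3l* rest on few counts. *Svil*, *Fbxl7*, *Gdpd2*, *Tmem163*, *Inpp4b* and *Drd1* kept their calls both without the meningeal UMIs and in the nuclei with 2 or 3 marker genes, as did *Nxph3*.

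The same test was run against the corticothalamic neurons, the neighbors of layer 6b. Of 7675 genes outside the rule 93 were higher in layer 6b (1.21%) and 46 lower (0.599%). Together they made up 1.81% of the genes. Without the C57BL/6J library 71 genes were called in all in place of 139, and with corticothalamic nuclei matched on UMIs 59. Corticothalamic nuclei were chosen by *Foxp2*, *Syt6* and *Ntsr1*, so these genes are left out. Of the 18 list genes 11 could be tested, of which 7 rose (*Tmem163*, *Svil*, *Inpp4b*, *Kcnab1*, *Nxph3*, *Nr4a2* and *Drd1*) and *Rprm* fell, with a median log2 fold change of 1.71 beside 0.01 over all genes fitted. In the nuclei with at least 2 marker genes 7 of 9 passed, with *Cdh10* called and *Nr4a2* and *Rprm* not tested. Of the 5 other corticothalamic list genes tested none was higher and *Crym*, a thyroid hormone binding protein, fell by 1.11.

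*Fbxl7* stood at 7.69, 9.38 and 10.8 CPM in corticothalamic nuclei, below its level in layer 6b in every library, and rose by 3.87 ± 0.29 on the log2 scale (adjusted p = 4.61e-12). *Svil* was at 7.69, 5.36 and 9.0 CPM there (3.76 ± 0.35, adjusted p = 1.29e-09). *Tmem163* had no count in the corticothalamic nuclei of C57BL/6J and 5.36 and 3.60 CPM in the other libraries (3.91 ± 0.49, adjusted p = 8.07e-07). *Inpp4b* was at 10.8, 17.4 and 5.40 CPM (2.77 ± 0.33, adjusted p = 2.84e-07). *Kcnab1* had 194, 132 and 148 CPM in layer 6b against 47.7, 36.2 and 23.4 CPM (2.03 ± 0.21, adjusted p = 1.28e-08). For all 5 the layer 6b and corticothalamic values did not overlap across libraries.

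*Nxph3* did overlap. Its corticothalamic values were 12.3, 22.8 and 27.0 CPM, so the 17.1 CPM of layer 6b nuclei in *Nav1* KO lay below the corticothalamic value of the same library. Its call (1.82 ± 0.36, adjusted p = 0.00112) thus rested on 2 of the 3 libraries. *Nr4a2*, at 24.6, 9.38 and 12.6 CPM in corticothalamic nuclei, was higher in layer 6b in each library (1.71 ± 0.35, adjusted p = 0.00149). *Drd1* was at 41.5, 38.9 and 39.6 CPM there, between its levels in layer 6b and in other nuclei, and rose by 1.38 ± 0.22 (adjusted p = 6.14e-05). *Htr2a*, the serotonin 2A receptor, was the other receptor to rise, at 43.5, 38.5 and 44.3 CPM against 7.69, 16.1 and 5.40 CPM (1.90 ± 0.42, adjusted p = 0.003). Of 16 receptors tested 2 rose and none fell, beside 1.21% and 0.599% of all genes, so a count of 0 lower is near that share. In the nuclei with at least 2 marker genes *Drd1* passed of 11 tested, and *Htr2a* could not be tested.

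Other genes named for their rise were *Col19a1*, a collagen, at 98.8, 62.0 and 73.8 CPM against 10.8, 5.36 and 19.8 CPM (2.72 ± 0.34, adjusted p = 6.73e-07), *C130073E24Rik* (2.71), *Gdpd2* (2.50), *Adcy8*, an adenylyl cyclase (2.11), and *Rasa4*, a Ras GTPase-activating protein (2.10). *Slc7a11*, the cystine and glutamate exchanger, was called as well (2.22), but its values were 7.91, 137 and 452 CPM against 7.69, 30.8 and 79.2 CPM. Without nuclei that had a meningeal UMI it was at 8.09, 26.9 and 6.06 CPM and could not be tested. In the nuclei with at least 2 marker genes its log2 fold change was 0.83 and it lost the call (edgeR adjusted p = 0.506).

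Among genes with at least 50 CPM in corticothalamic nuclei and the same direction in all 3 libraries, 2 of the 10 with the largest falls are given with their values. *Meis2*, a homeobox transcription factor, stood at 174, 209 and 113 CPM in layer 6b against 427, 531 and 591 CPM (log2 fold change -1.62 ± 0.15, adjusted p = 6.73e-10), and *Pbx3*, a partner of Meis proteins, at 19.8, 29.9 and 34.4 CPM against 50.7, 88.4 and 103 CPM (-1.57 ± 0.27, adjusted p = 1.62e-04). *Col5a1*, *Cdh9*, *Iqgap2*, *Plk5*, *Dab1*, *Runx1t1*, *Adarb2* and *Rgs9* fell by 1.34 to 1.97 on the log2 scale. Of the 10, *Pbx3*, *Adarb2* and *Dab1* lost the call in the nuclei with at least 2 marker genes, with log2 fold changes of -1.39, -1.17 and -0.82 and adjusted p of 0.0775, 0.177 and 0.217. *Rgs9*, which marks striatal neurons, was absent from the layer 6b nuclei of BTBR, which allows up to 3 counts. The striatal list summed to 518, 515 and 477 CPM in layer 6b and 910, 657 and 704 CPM in corticothalamic nuclei. In other glutamatergic nuclei it was 663, 499 and 520 CPM, nearer to layer 6b. Cortical interneuron genes, *Adarb2* among them, summed to 152, 202 and 238 CPM in corticothalamic nuclei. Most of the striatal sum in layer 6b was *Pde10a*, and *Drd2* was at 0 in the layer 6b nuclei of every library.

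**Figure D4:**
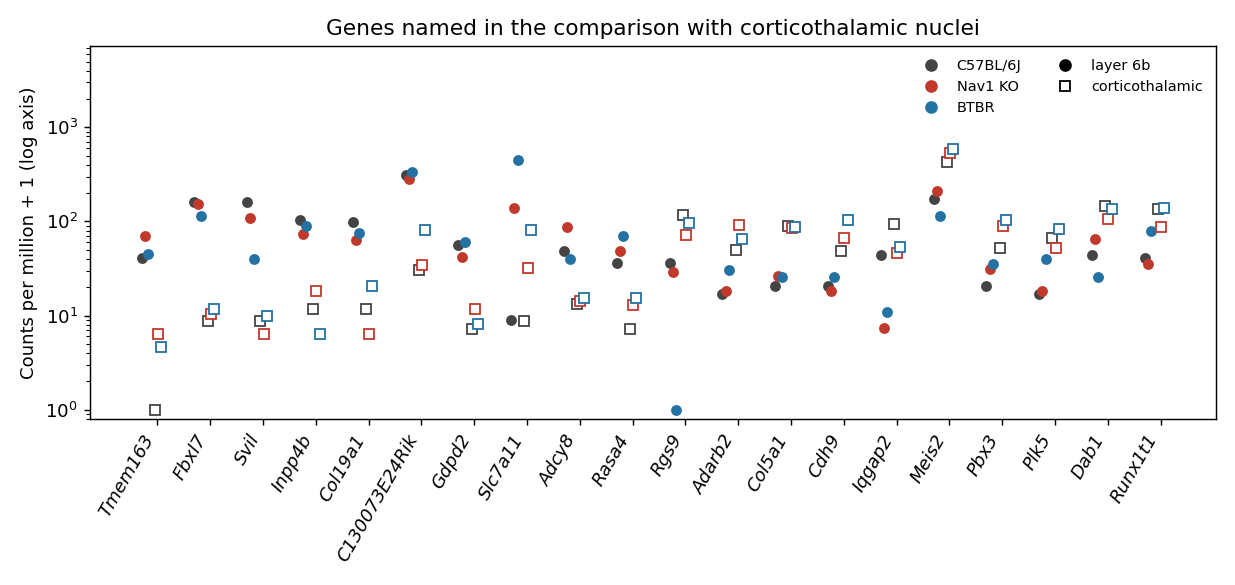
CPM plus 1 on a log axis, in layer 6b (filled circles) and corticothalamic nuclei (open squares), of the 10 genes named for the largest rise (left) and the 10 named for the largest fall (right), 1 point per library. *Slc7a11* spreads from 7.91 to 452 CPM across the layer 6b libraries while *Fbxl7* stays between 113 and 158 CPM.

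Of 21 potassium and HCN channel genes tested against other glutamatergic nuclei *Kcnab1* and *Kcnn3* rose and *Kcnc2*, *Kcnq5* and *Kcnn2* fell, beside 1.39% of all genes higher and 1.38% lower. Against corticothalamic nuclei *Kcnab1* and *Kcnn3* rose and *Kcnn2* fell, of 18 tested, beside 1.21% and 0.599% of all genes. *Kcnab1* was the one channel gene that passed in either comparison in the nuclei with at least 2 marker genes. Against other nuclei *Kcnn3*, *Kcnc2*, *Kcnq5* and *Kcnn2* had log2 fold changes of 1.30, -1.71, -1.32 and -1.10 there, with edgeR adjusted p of 0.389, 0.151, 0.171 and 0.0565. Against corticothalamic nuclei *Kcnn2* also lost its call without nuclei that had a meningeal UMI (-0.91, under the limit of 1), and *Kcnn3* could not be tested in either of these settings. *Kcnn2* and *Kcnn3* encode related small-conductance calcium-activated channels. *Kcnn2* had 47.4, 55.5 and 54.1 CPM in layer 6b and 109, 105 and 91.8 CPM in corticothalamic nuclei. *Kcnn3* had 43.5, 25.6 and 29.5 CPM in layer 6b and 10.8, 10.7 and 9.0 CPM in corticothalamic nuclei.

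Of 33 guidance and adhesion genes tested *Cdh13* and *Cdh18* rose and *Unc5d*, *Cdh9*, *Epha4*, *Slit3* and *Plxnd1* fell against other glutamatergic nuclei, beside 1.39% of all genes higher and 1.38% lower. With at least 2 marker genes found *Cdh9* and *Plxnd1* lost the call (log2 fold changes -1.38 and -0.87, adjusted p = 0.189 and 0.61), and *Ntng1* and *Plxna4* were called lower. *Cdh13*, a cadherin anchored in the membrane by a lipid, was at 312, 218 and 334 CPM in layer 6b, 93.8, 95.1 and 103 CPM in corticothalamic and 81.4, 77.0 and 76.3 CPM in other nuclei. It rose by 1.64 ± 0.13 against the other nuclei (adjusted p = 2.21e-35) and by 1.46 ± 0.15 against the corticothalamic (adjusted p = 1.28e-08). Of 27 tested against corticothalamic nuclei *Cdh13* rose and *Cdh9*, *Dcc* and *Epha4* fell, beside 1.21% and 0.599% of all genes. *Dcc* lost its call without nuclei that had a meningeal UMI (-0.92, edgeR adjusted p = 0.0799). It also lost it with at least 2 marker genes found (-1.24, edgeR adjusted p = 0.276), where *Cdh10* was called higher and *Nrp1* lower. Of 24 glutamate receptor genes *Grik3*, a kainate receptor subunit, rose by 1.35 ± 0.17 (adjusted p = 4.24e-13) and no other passed, beside 2.77% of all genes called. *Gria3* and *Grin2a* were also called lower in the nuclei with at least 2 marker genes, with log2 fold changes of -1.34 and -1.26. Of 19 tested against corticothalamic nuclei *Grm8* fell by 1.02 (edgeR adjusted p = 0.0036), beside 0.599% of all genes lower. Without nuclei that had a meningeal UMI *Grm8* was at -0.98, under the limit of 1. With at least 2 marker genes found *Grm8* and *Gria3* were called lower there. Of 12 GABA-A receptor genes tested against other glutamatergic nuclei *Gabra5* rose and *Gabra2* fell, beside 1.39% of all genes higher and 1.38% lower. None of 10 tested against corticothalamic nuclei passed, a count near the 1.81% of all genes called. With at least 2 marker genes found *Gabrg3* was called lower there.

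Relatives of the marker genes were read as well. Over all genes 2.77% were called against other glutamatergic nuclei and 1.81% against corticothalamic nuclei, so no call in a short list is near those shares. *Cplx1* and *Cplx2* could be tested and neither passed (*Cplx2* had a log2 fold change of -0.85, under the limit of 1, with an adjusted p of 0.0227, and was called lower without nuclei that had a meningeal UMI, at -1.11), and *Cplx4* had no count in layer 6b nuclei of any library. Of the neurexophilins *Nxph3* rose and *Nxph2* had no count in them. Of 5 other CCN genes 3 could be tested against other glutamatergic nuclei and none passed, beside 2.77% of all genes called. None of 15 neuropeptide genes passed against other glutamatergic nuclei, a count near the 2.77% of all genes called. Of 5 tested against corticothalamic nuclei *Tac1* and *Npy* fell, by 1.87 and 1.20, beside 0.599% of all genes lower. *Npy* lost that call in the nuclei with at least 2 marker genes (log2 fold change -1.62, adjusted p = 0.209), and *Tac1* could not be tested there or without nuclei that had a meningeal UMI. *Cck* led the peptides in layer 6b at 217, 209 and 329 CPM. The 3 neuron navigators did not pass in either comparison, although *Nav2* was called lower in both in the nuclei with at least 2 marker genes. None of 14 immediate early genes passed against other nuclei, again near the 2.77% of all genes called. Their summed level in layer 6b was 245 CPM in C57BL/6J, 376 in the *Nav1* KO and 708 in BTBR, beside 339, 357 and 664 CPM in other nuclei.

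Levels in layer 6b nuclei were last set side by side between libraries, as ratios of CPM with exact 95% intervals, beside the same ratio in other glutamatergic nuclei. Both ratios use the C57BL/6J library. Of 2841 genes with at least 30 counts in 1 of the 2 libraries 566 (19.9%) differed at least 1.5 times between *Nav1* KO and C57BL/6J, with 254 (8.94%) higher and 312 lower, and the same genes did so in 4.93% of cases in the much deeper other nuclei. Between BTBR and C57BL/6J it was 384 of 1596 (24.1%), of which 112 (7.02%) were higher and 272 lower, with 8.21% in other nuclei. With TMM factors in place of plain CPM the *Nav1* KO split became 422 higher and 137 lower, the median log2 ratio of all genes moving from -0.07 to 0.10. No p-value is given, since each genotype was 1 library.

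The genes named as highest in *Nav1* KO and BTBR over C57BL/6J mostly had smaller ratios once nuclei with a meningeal UMI were left out. The part of such nuclei in the ratios was not tested beyond this. *Ptgds*, a prostaglandin synthase abundant in the meninges, was at 31.6 CPM in C57BL/6J, 519 in the *Nav1* KO and 1156 in BTBR, a ratio of 16.4 (8.20 to 38.5) and 36.5 (18.2 to 85.6). In other nuclei the ratios were 3.74 and 2.70, and without nuclei that had a meningeal UMI they were 5.45 and 2.57 in layer 6b. In the nuclei with at least 2 marker genes C57BL/6J had no count of *Ptgds*, so no ratio is given there. *Slc7a11* had ratios of 17.3 (4.60 to 146) and 57.2 (15.4 to 480), against 2 counts in C57BL/6J, and these became 3.33 and 0.75. In the nuclei with at least 2 marker genes they were 10.7 in *Nav1* KO and 0 in BTBR, so the *Nav1* KO ratio stayed large there. *Vtn* and *Aebp1* had no count in C57BL/6J and were at least 15.3-fold and 14.9-fold higher in BTBR (182 and 177 CPM), taking 3 counts in C57BL/6J as the floor. These bounds did not hold without nuclei that had a meningeal UMI, where BTBR had 12.1 and 0 CPM, at or under that floor, so no ratio is given there. *Igfbp2* had a *Nav1* KO ratio of 11.6 (3.03 to 99.0), which became 7.57, and 9.54 in the nuclei with at least 2 marker genes.

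*Ndst4*, a heparan sulfate sulfotransferase, had 34 counts in 9 layer 6b nuclei of *Nav1* KO and 1 count in C57BL/6J, a ratio of 18.4 (3.08 to 747), and without nuclei that had a meningeal UMI the ratio was 15.1. In other nuclei it was 0.822 (0.759 to 0.891). The most UMIs in a single nucleus of *Nav1* KO were 7.

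The genes named as lowest were shared with other neurons to different degrees. In *Nav1* KO they included *AY036118* (ratio 0.364), *Gm26917* (0.323), *Atxn2l* (0.506) and *Mical3* (0.497), and the ratios in other nuclei were 0.428, 0.386, 0.672 and 0.738. *Mical3*, an actin-regulating monooxygenase, had an interval of 0.363 to 0.680 in layer 6b and 0.710 to 0.767 in other nuclei. In BTBR *Gm12027*, *Gm17167* and *A830036E02Rik* had no count in layer 6b nuclei and were at least 14.7-fold, 10.7-fold and 8.31-fold lower than in C57BL/6J. Their ratios in other nuclei were 0, 0.00412 and 0.0101. *Gabarapl2*, an ATG8-family autophagy protein, had a ratio of 0.135 (0.0419 to 0.339) and *AC149090.1* 0.204 (0.157 to 0.263). In other nuclei these 2 had ratios of 0.183 and 0.229, so the low level in BTBR was not limited to layer 6b.

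Layer 6b genes varied between libraries too. *Svil* in BTBR was 0.249 times its level in C57BL/6J (0.101 to 0.539) on 8 against 40 counts, while in other nuclei the ratio was 0.930. *Nxph3* in BTBR was 1.92 times (1.09 to 3.45). *Drd1* in *Nav1* KO was 0.988 times its level in C57BL/6J (0.617 to 1.61). *Nav1* itself had a ratio of 0.830 (0.624 to 1.11) in the *Nav1* KO and 0.303 (0.176 to 0.499) in BTBR, with 0.668 and 0.396 in other nuclei.

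**Figure D5:**
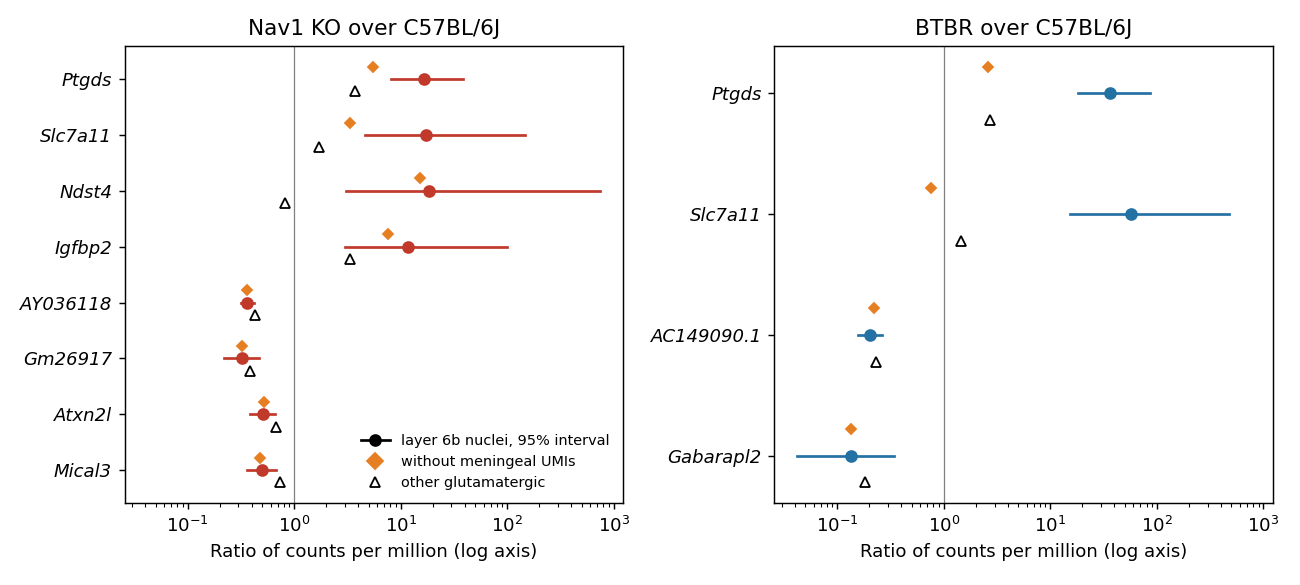
Ratio of CPM over C57BL/6J on a log axis, for genes named as highest and lowest with counts in both libraries. Circles and bars are layer 6b nuclei with 95% counting intervals, diamonds the same without nuclei that had a meningeal UMI, and triangles other glutamatergic nuclei; the *Slc7a11* ratio in BTBR is 57.2 among all layer 6b nuclei and 0.75 without those nuclei.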

How the data were processed

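The authors deposited a filtered matrix of UMI counts per gene and nucleus for each library, made with Cell Ranger 6.0.0 on mm10 per the labels. Counts were summed over layer 6b, corticothalamic and other glutamatergic nuclei in each of the 3 libraries, giving 6 sums per comparison, and fitted in R 4.3.3 with edgeR 4.0.16 (filterByExpr, TMM, quasi-likelihood F test, library as a block, Benjamini-Hochberg over all genes fitted). The block takes out the level of each library, so p-values rest on how the difference between classes varies between libraries, with dispersion shared across genes. The libraries differ in genotype, so that spread holds genotype and library together, and p-values measure no more than that. The SE of a log2 fold change is its size over the root of F, so it is not a standard error over the 3 library values. Levels are CPM of all counts of the nuclei summed, shares have exact Clopper-Pearson and ratios exact binomial-split 95% intervals, from scipy 1.17.1. Counts of 0 are given a limit of 3 counts. Gene positions are from GENCODE M21 (mm10). The fit was tested on simulated counts.

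The members, gene lists and tests were chosen with earlier results of these data known. Named genes were those of the lists and, per class comparison, the 10 called genes with the largest rise and the 10 with the largest fall (at least 50 CPM in the higher class, same direction in all 3 libraries). Between libraries they were the 5 with the highest lower bound and the 5 with the lowest upper bound of the ratio. Some genes that this rule names are not reported here. Genes used to choose nuclei were fitted and never called. Doublets were not removed, and Scrublet scores (scanpy 1.11.5) gave an alternative. The alternatives of at least 2 marker genes and of no meningeal UMI were chosen after seeing the data. Other alternatives were run with DESeq2 1.42.0 and limma 3.58.1.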

Additional observations from a re-analysis of the deposited data

Results flagged for a closer look

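For 3 named genes the contrast between layer 6b and other glutamatergic nuclei lay on opposite sides of 1 in different libraries, with 95% counting intervals that exclude 1. The difference between libraries was not tested, since each genotype was 1 library. *Slc7a11* in layer 6b was 0.229 times its level in other nuclei in C57BL/6J, 2.32 times in *Nav1* KO and 9.08 times in BTBR. *Ptgds* was at 0.311, 1.36 and 4.21 times. Both moved with the meningeal fibroblast genes, which summed to 7.91, 147 and 310 CPM in the same nuclei, and with all nuclei left out that had a UMI of those genes *Slc7a11* stood at 8.09, 26.9 and 6.06 CPM. *Kcnh7*, a potassium channel gene, was at 1.21 times in *Nav1* KO and 0.507 times in BTBR, and did not pass a call over the 3 libraries.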

How the results depend on the processing

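The comparison of layer 6b nuclei with other glutamatergic nuclei called 413 genes, and 245 with DESeq2, 66 with limma-voom, 212 without the library block and 269 in the nuclei with at least 2 marker genes. Leaving out 1 library gave 311 to 317. Against corticothalamic nuclei it called 139 genes, and 30 with DESeq2, 80 without the block, 59 with nuclei matched on UMIs (3895 genes tested in place of 7682) and 71 to 172 with 1 library left out, the lowest without C57BL/6J. DESeq2 size factors moved the share of calls that were higher from 50.1% to 58.7% in the first comparison. The cause of the other changes was not tested. The log2 fold changes of *Dcn*, *Ranbp3l* and *Slc6a13* turned to -8.68, -1.36 and -0.66 in the nuclei with at least 2 marker genes. The 6 meningeal genes together had 1, 7 and 0 counts there, so -8.68 is not read as a size of change. The values for *Ranbp3l* and *Slc6a13* also rest on few counts. The log2 fold change of *Vtn* turned to -0.61 without nuclei that had a meningeal UMI. Among nuclei deep enough to be thinned, the share ratio of *Nav1* KO was 1.14 at 2000 UMIs and that of BTBR 1.23 at 1000. Genes past 1.5 times between *Nav1* KO and C57BL/6J numbered 341 with at least 3 UMIs and 120 with at least 2 marker genes, and 81 for BTBR with at least 2 marker genes, where fewer genes reached 30 counts. TMM factors changed how many of the *Nav1* KO genes were higher from 254 of 566 to 422 of 559. Of the gene values under alternatives of the 2 class comparisons 1120 kept their direction and side of the threshold, 239 lost the call and 4 turned. The lower bounds for *Vtn* and *Aebp1* in BTBR (15.3 and 14.9) did not hold without nuclei that had a meningeal UMI, where BTBR had 12.1 and 0 CPM. Layer 6b nuclei with and without *Ccn2* were not compared, because 2 of 255 lacked it. The library block paired the sums of each library, and the labels give no replicate numbers for any other pairing. Depth limits genes of few counts, such as *Moxd1* and *Hcrtr2*.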
